A study of Bos taurus with 2 samples.

Results

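The glycolysis and glycogen genes described here were a list of 53 symbols, from glucose uptake to lactate export, with the glycogen enzymes and the enzymes that buffer ATP in muscle. Probes were found through the RefSeq accession that each probe carries, and 45 of the 53 genes had at least 1 probe, 148 probes in all. The whole series held 43639 probes, of which 20587 carried the accession of 1 of 9647 genes. HK2, HK3, PFKP, PKM, PHKA1, PHKB, PGM2 and PDK1 had no probe matched in this way and were not analysed here.

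The study compared muzzle tissue, labelled nose, of a female Hanwoo with a yellow (light) muzzle and a female Hanwoo with a black (dark) muzzle. Both animals were 30 months old, the labels name no treatment, and they are called the light cow and the dark cow below. For each colour, total RNA from the muzzle of 1 cow was hybridised to 1 Agilent bovine array with Cy3, so the values describe 2 animals and no test between colours was possible. RNA came from a whole piece of the front of the muzzle, and on such a mixture fewer cells of a type and less RNA per cell cannot be told apart.

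Glycolysis splits glucose into pyruvate in the cytosol, and lactate dehydrogenase converts pyruvate to lactate when oxygen or respiration is limiting. Glycogen is the stored form of glucose. Skeletal muscle breaks its own glycogen down to feed glycolysis, and it keeps ATP steady through creatine kinase and adenylate kinase. Many of these enzymes are encoded by several genes, of which skeletal muscle mainly uses 1 and epithelium, liver, brain or blood cells use another. GAPDH, the enzyme of the sixth step, was the internal control named in the methods of the study.

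On both arrays 78.8% to 81.9% of the 43803 noncontrol spots were well above background, no spot was saturated, and 8 spike-in transcripts well above background on most spots of both arrays had log2 ratios between -0.38 and 0.020. Levels are given as log2 of the processed signal minus the 75th percentile of the array, so that a level of 0 is the brightness of that percentile. Levels serve to compare the cows, not to compare genes. The log2 ratio of a gene is always dark minus light. It was averaged over the probes of a gene that were well above background in both cows, and its SD is the spread between those probes, not between animals. This SD had a median of 0.13 over the 40 listed genes with 2 or more such probes. The keratinocyte markers KRT5 and KRT14 were bright in both cows, at levels of 6.32 and 7.52 in the light cow and 5.80 and 7.12 in the dark cow. Both genes were picked after their values were seen, and both had ratios below 0. Of the 14 keratinocyte markers with a ratio, 11 had ratios above 0.

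Of the 45 enzyme genes, 28 (62.2%) were at least 2-fold higher in the dark cow and 1 (2.22%) was at least 2-fold lower. Over all 8914 genes with a ratio, 9.86% were at least 2-fold higher and 6.47% were at least 2-fold lower. The other 16 enzyme genes differed by less than 2-fold. The median log2 ratio was 1.18 for the enzyme genes and 0.065 for all genes. All 45 were well above background in both cows with at least 1 probe, so none was lost to the filter on dim probes.

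The ratios differed between the isoform classes. All 13 muscle isoforms with a probe were at least 2-fold higher in the dark cow, with a median log2 ratio of 3.01 and a range of 1.49 to 3.74. Of 15 isoforms that other tissues mainly use, 3 were at least 2-fold higher and 1 was at least 2-fold lower, and their median log2 ratio was 0.037. The remaining 17 genes, which do not divide in this way or were not so divided here, had a median log2 ratio of 1.15, and 12 of them were at least 2-fold higher. At a threshold of 4-fold, which 3.17% of all genes passed, 10 of the 13 muscle isoforms, 0 of the 15 isoforms of other tissues and 1 of the 17 remaining genes were higher. These 3 classes were drawn up from the known tissue use of each gene, with earlier results of these arrays known.

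**Figure D1:**
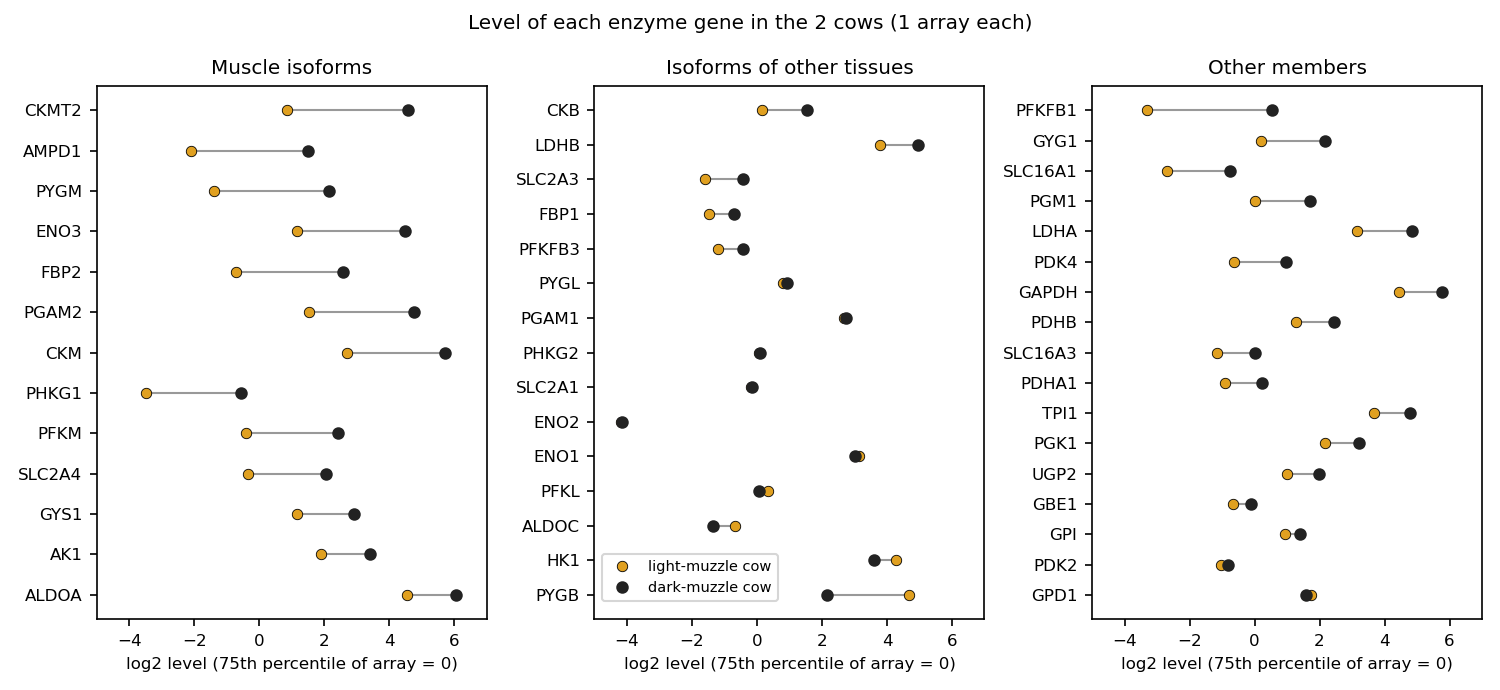
Each row is a gene, and the points are its log2 level (horizontal axis, 75th percentile of the array at 0) in the light cow (yellow) and the dark cow (black), from 1 array each and averaged over the measured probes. Every muscle isoform lies further right in the dark cow, whereas 7 of the 15 isoforms of other tissues have ratios within 0.3 of 0 and PYGB lies furthest to the left in the dark cow relative to the light cow.

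The contrast was visible within single enzymes. In 9 enzyme families at least 1 gene of each kind had a ratio, and in each of these 9 the muscle isoform had a higher ratio than the mean of the other isoforms, by 1.62 to 4.72 on the log2 scale. The smallest gap, in creatine kinase, rests on the CKB mean, whose probes disagreed. The widest gap was in glycogen phosphorylase, which releases glucose units from glycogen. PYGM, the muscle enzyme, had a level of -1.40 in the light cow and 2.13 in the dark cow, a log2 ratio of 3.53 ± 0.079 (SD, 2 probes) or 11.6-fold. A further PYGM probe was well above background in the dark cow only and was at least 10.5-fold higher there. PYGL, named for the liver, had levels of 0.80 and 0.93, a ratio of 0.13. PYGB, named for the brain and present in many other tissues, went the other way. Its 1 probe had a level of 4.67 in the light cow and 2.17 in the dark cow, 5.68-fold lower, and it was the only listed gene to be lower by 2-fold.

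**Figure D2:**
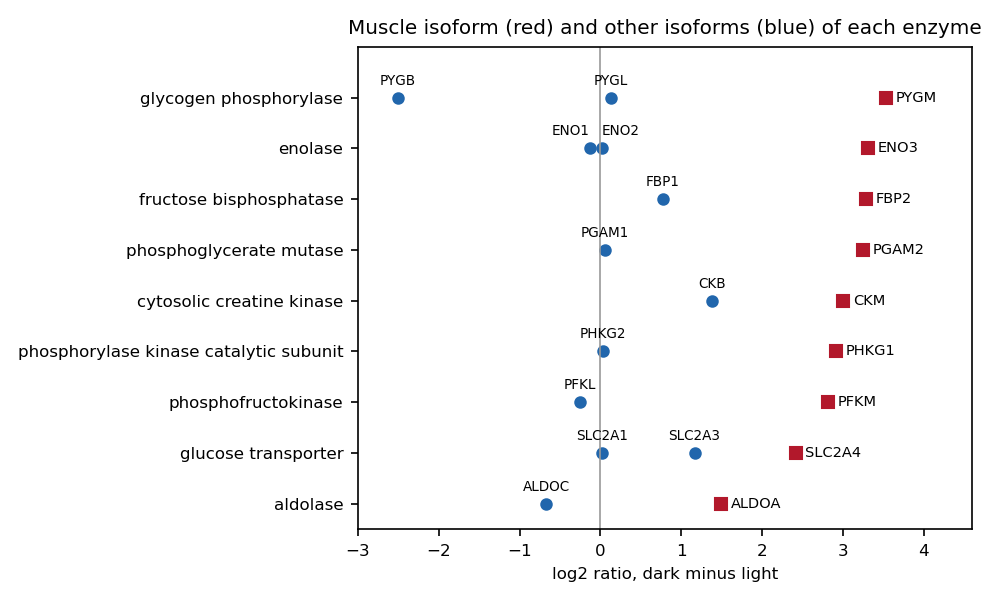
Each row is an enzyme family with log2 ratios (dark minus light) of the muscle isoform (red squares) and of the other isoforms (blue circles). All 9 red squares lie to the right of the blue circles of their row, and the red squares run from 1.49 for ALDOA to 3.53 for PYGM.

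Enolase converts 2-phosphoglycerate to phosphoenolpyruvate, and its muscle form is ENO3. ENO3 had a level of 1.17 in the light cow and 4.48 in the dark cow, a log2 ratio of 3.31 ± 0.29 (SD, 4 probes). ENO1, the form of most other cells, had a level of 3.13 in the light cow and a ratio of -0.13, with 5 probes between -0.27 and -0.028. ENO2, the form of neurons, was dim at -4.18 and -4.16. Neither of the latter differed by more than 0.13 on the log2 scale, against 9.91-fold for ENO3.

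Phosphoglycerate mutase acts 1 step earlier. PGAM2, the muscle form, had levels of 1.52 in the light cow and 4.77 in the dark cow, 9.48-fold higher, with probes at 3.19 and 3.30. PGAM1, the widespread form, had levels of 2.68 and 2.73 and a ratio of 0.054 ± 0.22 (SD, 4 probes). The ratio of PGAM1 was smaller than the spread between its own probes.

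Phosphofructokinase commits fructose 6-phosphate to glycolysis. PFKM, its muscle subunit, had levels of -0.40 and 2.41, and all of its 6 probes lay between 2.65 and 2.95. PFKL, the liver subunit, had levels of 0.33 and 0.075, a ratio of -0.25. Fructose bisphosphatase runs the reverse reaction. FBP2, the muscle form, was 9.79-fold higher in the dark cow, with levels of -0.72 and 2.57. FBP1, the form of liver and kidney, had levels of -1.48 and -0.70 and was 1.71-fold higher, which was less than the 2-fold threshold.

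Phosphorylase kinase switches glycogen phosphorylase on. Its muscle catalytic subunit PHKG1 was dim in the light cow, at -3.49, and had a level of -0.57 in the dark cow, 7.57-fold higher. Its other probe was well above background in the dark cow only. It was 8.84-fold higher against a light level of -5.47 that was not well above background, so this is an uncertain ratio, not a limit. PHKG2, the subunit of liver and testis, had levels of 0.055 and 0.091. Under normexp, another way of correcting the background, the ratio of PHKG1 was 2.11 in place of 2.92.

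Aldolase cleaves fructose bisphosphate. ALDOA, which muscle uses but many other cells make too, had levels of 4.55 and 6.04 and the smallest ratio of the muscle isoforms, 1.49 ± 0.14 (SD, 4 probes). ALDOC, the brain form, had levels of -0.68 and -1.35. Its 3 probes disagreed, at -1.82, -0.72 and 0.53, so its mean of -0.67 has no settled direction.

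Among glucose transporters, SLC2A4 (GLUT4) is the insulin-responsive carrier of muscle and fat. It had levels of -0.36 and 2.05 over 3 measured probes, of which 2 had ratios of 3.04 and 3.13 and the other 1.08. A further SLC2A4 probe was well above background in the dark cow only and was at least 4.63-fold higher there. SLC2A1 (GLUT1), the carrier of most cells, had levels of -0.17 and -0.15. SLC2A3 (GLUT3), known from neurons and white blood cells, was 2.25-fold higher in the dark cow, from -1.60 to -0.44, on 2 of its 6 probes. Of the others, 3 were well above background in the dark cow only and 1 in neither cow. Hexokinase, which traps glucose in the cell, was represented by HK1 alone, with levels of 4.29 and 3.61 and a ratio of -0.69 from 1 probe.

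Creatine kinase regenerates ATP from phosphocreatine. CKM, the cytosolic muscle form, had levels of 2.70 in the light cow and 5.71 in the dark cow, 8.03-fold higher, with 4 probes between 2.75 and 3.27. CKMT2, the mitochondrial form of striated muscle, had levels of 0.84 and 4.58. It was 13.3-fold higher and had the highest ratio of the muscle isoforms, 3.74 ± 0.24 (SD, 2 probes), although with the brightest probe alone AMPD1 was higher, at 4.02 against 3.57. CKB, the form of brain and epithelium, had a mean ratio of 1.38 with an SD of 1.63, because its 6 probes formed separate sets. For 3 of them the ratios were 2.83 to 2.84, within the range of the CKM probes, and for the other 3 they were -0.38, -0.35 and 0.51. The probes thus disagreed, so the CKB value is uncertain, and it was -0.38 with the brightest probe alone. CKB and CKM are close paralogs, and whether probes of CKB also detect CKM was not tested.

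AMPD1, the AMP deaminase of muscle, had levels of -2.11 and 1.48, a ratio of 3.60 from probes at 3.17 and 4.02. A further AMPD1 probe was well above background in the dark cow only and was at least 6.19-fold higher there. AK1, the cytosolic adenylate kinase, rebuilds ATP and AMP from ADP. It was 2.86-fold higher in the dark cow, at 1.90 and 3.42. GYS1, the glycogen synthase of muscle and most other tissues, was 3.42-fold higher on its 1 probe, at 1.15 and 2.93. ALDOA, AK1 and GYS1 were the 3 muscle isoforms with ratios under 2. SLC2A4, PFKM, PHKG1, CKM, PGAM2, FBP2, ENO3, PYGM, AMPD1 and CKMT2 lay between 2.42 and 3.74.

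**Figure D3:**
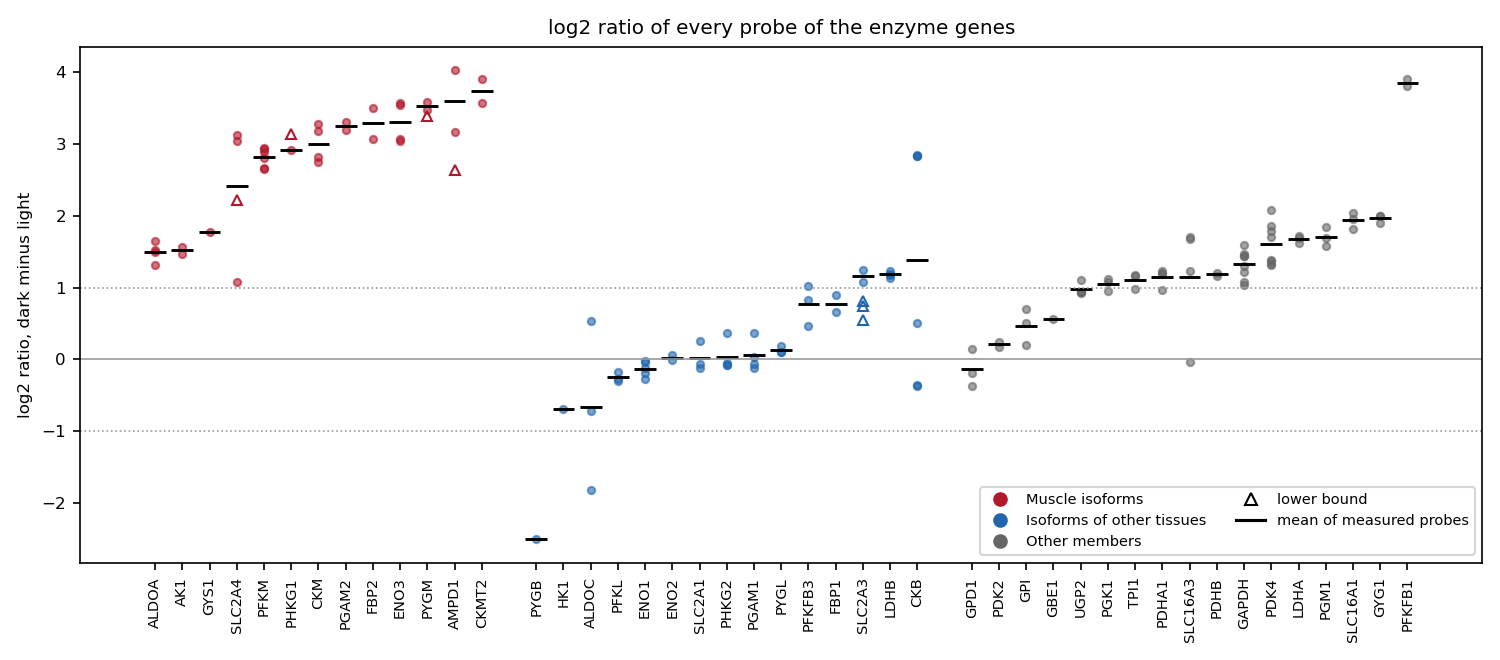
Log2 ratio (dark minus light) of each probe, by gene. Filled circles are probes well above background in both cows. Open triangles are lower bounds from probes above it in the dark cow only, except that of PHKG1, which is a ratio to a dim light level. A SLC2A3 probe above it in neither is not drawn, black bars are means of the measured probes, and dotted lines mark 2-fold. Most genes have tightly grouped probes, while CKB, ALDOC, SLC16A3 and SLC2A4 have probes far apart.

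GAPDH had a level of 4.44 in the light cow and 5.77 in the dark cow, 2.50-fold higher. Each of its 8 probes was at least 2-fold higher, with folds from 2.04 to 3.03. Of all 36630 probes with a ratio or bound, 9.76% were at least 2-fold higher and 7.17% at least 2-fold lower. The ratio was smaller for brighter probes. The brightest probe, at levels of 6.71 and 7.74, had a ratio of 1.03, and the dimmest, at 2.16 and 3.76, had a ratio of 1.60. The enzymes just before and after GAPDH in the pathway were higher too. TPI1, triose phosphate isomerase, had levels of 3.68 and 4.78 and a ratio of 1.10 ± 0.11 (SD, 3 probes). PGK1, phosphoglycerate kinase, had levels of 2.16 and 3.21 and a ratio of 1.05 ± 0.083 (SD, 3 probes). TPI1 and PGK1 were just below 2-fold, at 0.96 and 0.95, under quantile normalization. GPI, glucose phosphate isomerase at the start of the pathway, was 1.38-fold higher.

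**Figure D4:**
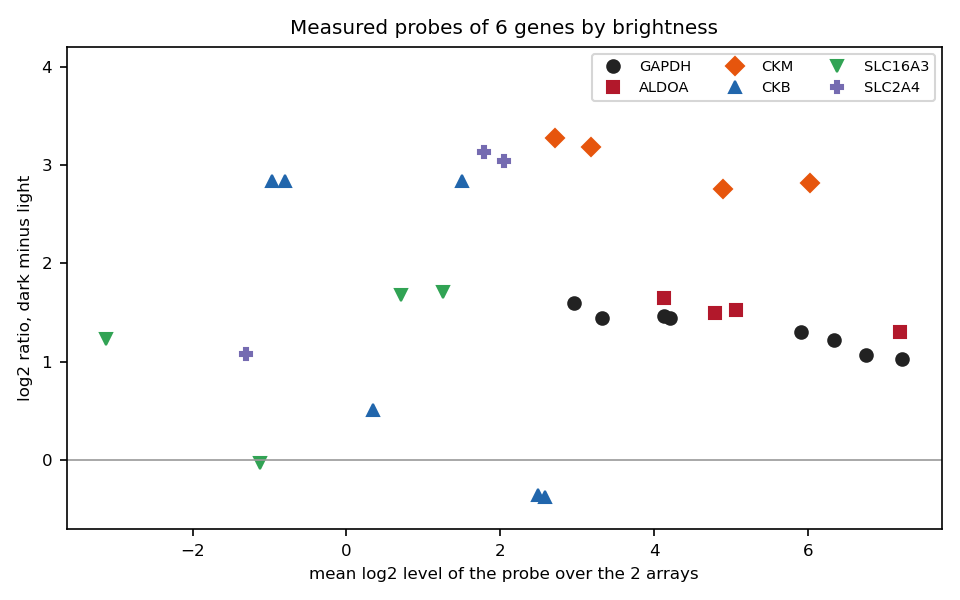
Log2 ratio (dark minus light) of the probes measured in both cows against their mean log2 level, for 6 genes. The 8 GAPDH probes run from a ratio of 1.60 for the dimmest to 1.03 for the brightest, and the CKB probes split into a set near 2.84 and a set between -0.38 and 0.51.

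Genes that handle pyruvate and lactate were higher in the dark cow, 7 of 8 by at least 2-fold, against 9.86% of all genes. LDHA, the lactate dehydrogenase of fast muscle and many other cells, had levels of 3.16 and 4.83, 3.19-fold higher. LDHB, the form of heart and slow muscle, had levels of 3.78 and 4.97, 2.27-fold higher, with 4 probes between 1.13 and 1.23. Both lactate dehydrogenase genes were thus higher, with ratios of 1.67 for LDHA and 1.18 for LDHB. LDHB was counted with the isoforms of other tissues, where only CKB had a higher ratio, and LDHA with the remaining genes. Lactate dehydrogenase was therefore not among the 9 families compared above, and the result for those families does not cover it. LDHB had a ratio of 0.98 under quantile normalization.

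The carriers SLC16A1 (MCT1) and SLC16A3 (MCT4) move lactate across the cell membrane. SLC16A1 was dim, at -2.69 and -0.76, and 3.82-fold higher in the dark cow. SLC16A3 had a mean ratio of 1.15, from 3 probes between 1.23 and 1.71 and 1 at -0.031, so its probes disagreed. Pyruvate dehydrogenase passes pyruvate to the citrate cycle. Its subunits PDHA1 and PDHB were 2.21-fold and 2.27-fold higher, with levels of -0.92 and 0.23 for PDHA1 and 1.28 and 2.46 for PDHB. PDK4, a kinase that switches the complex off and is strongly induced by fasting in muscle, had 8 probes between 1.31 and 2.08 and was 3.04-fold higher. PDK2, a widespread kinase of the same family, was 1.15-fold higher, at -1.02 and -0.82.

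The highest ratio of the list belonged to PFKFB1, which makes and breaks fructose 2,6-bisphosphate and is known from liver and skeletal muscle. It had levels of -3.30 and 0.55, 14.5-fold higher, with probes at 3.81 and 3.90. It ranked 16 from the top among 8914 genes, ahead of CKMT2 at 19 and AMPD1 at 38. The top place was not kept under normexp background correction, where its ratio was 3.23 and that of CKMT2 3.73, nor with the brightest probe alone, where AMPD1 had 4.02 and PFKFB1 3.81. PFKFB3, the form of proliferating and other cells, had levels of -1.19 and -0.42 and was 1.70-fold higher.

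Of 5 glycogen synthesis genes, 3 were at least 2-fold higher, among them GYS1 above, against 9.86% of all genes. The median log2 ratio of the 5 was 1.71. Of 5 glycogen breakdown genes, 2 were at least 2-fold higher and 1 at least 2-fold lower, with a median of 0.13. Of 4 genes of glucose uptake and phosphorylation, 2 were at least 2-fold higher, with a median of 0.59. GYG1, the glycogenin that primes glycogen, had levels of 0.21 and 2.18 and was 3.90-fold higher, with each of 3 probes at 1.90 or above. PGM1, phosphoglucomutase, had levels of 0.0066 and 1.71 and was 3.26-fold higher. UGP2, which makes UDP-glucose, was 1.97-fold higher, just under the threshold, and GBE1, the branching enzyme, was 1.47-fold higher on 1 probe. GPD1, a glycerol phosphate dehydrogenase abundant in fat and also found in muscle, had levels of 1.74 and 1.60 and was the only one of the 17 remaining genes with a ratio below 0.

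Further genes of glycolysis, pyruvate and glycogen metabolism were taken from a list of 57, of which 31 had a ratio. In the dark cow 10 of the 31 were at least 2-fold higher and 2 were at least 2-fold lower. Over all genes the shares were 9.86% and 6.47%, so the count of lower genes was near its share. The median log2 ratio of the 31 was 0.31. The highest was PPP1R3C, a glycogen-targeting subunit of protein phosphatase 1, with levels of -0.0037 and 2.58. EPM2A (laforin, a glycogen phosphatase) had a ratio of 2.24, the pyruvate and lactate carrier SLC16A7 one of 2.22, and the mitochondrial pyruvate carrier MPC1 one of 1.77. AK3, AK4, PPP1R3B, PGM5 and PDHX lay between 1.12 and 1.72. GAPDHS, the sperm paralog of GAPDH, had 1 measured probe with levels of 4.95 and 6.27 and a ratio of 1.32, against 1.32 for GAPDH. The GAPDHS value is uncertain, since it rests on 1 measured probe, and whether that probe also detects GAPDH was not tested. The genes at least 2-fold lower were PC, pyruvate carboxylase (-1.39), and PGM3, which serves amino sugar synthesis (-1.28).

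Markers of skeletal muscle moved with the muscle isoforms. All 17 muscle fibre genes with a probe, of 24 listed, were at least 2-fold higher in the dark cow, against 9.86% of all genes. The 17 ratios ran from 2.24 to 3.68, with a median of 3.34. Among the 4 brightest, myoglobin (MB) had a ratio of 2.56, the troponin TNNC2 one of 3.01, the myosin light chain MYL1 one of 2.90 and the actin ACTA1 one of 2.24. The summed level of the 17 genes, in units of the 75th percentile signal, was 185 in the light cow and 1323 in the dark cow. The part that muscle fibres in each piece of tissue had in the enzyme ratios was not tested.

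Markers of other tissues did not share 1 direction. Over all genes, 9.86% were at least 2-fold higher and 6.47% at least 2-fold lower in the dark cow. Of 8 serous gland markers, 6 were at least 2-fold lower in the dark cow, and 2 had ratios above 0, 1 of them by at least 2-fold. Their median ratio was -3.24 and their summed level was 273 in the light cow against 15.1 in the dark cow. Keratinocyte markers had a median of 0.96, with 6 of 14 at least 2-fold higher, 11 with ratios above 0 and 3 below 0. Their summed level was 571 in the light cow against 916 in the dark cow, and bright genes weigh most in this sum. Among the bright ones, KRT10 had levels of 6.92 and 8.49 on 1 probe, while KRT5 and KRT14 had ratios of -0.52 and -0.41. Endothelial markers had a median of 0.90, with 3 of 7 at least 2-fold higher. Melanocyte markers had a median of 1.34, with 4 of 7 at least 2-fold higher and 2 with ratios below 0. The medians of fibroblast, leukocyte, erythroid and nerve markers lay between -0.53 and -0.050. Of the defining markers, ACAN, CNMD, ALAS2 and NEFL were not well above background in either cow. Adipocyte markers had a median of 0.51. Smooth muscle markers had a median of 0.36 and cartilage markers one of -0.61. PYGB was lower in the same cow as most gland markers, and the part of glands in its ratio was not tested.

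**Figure D5:**
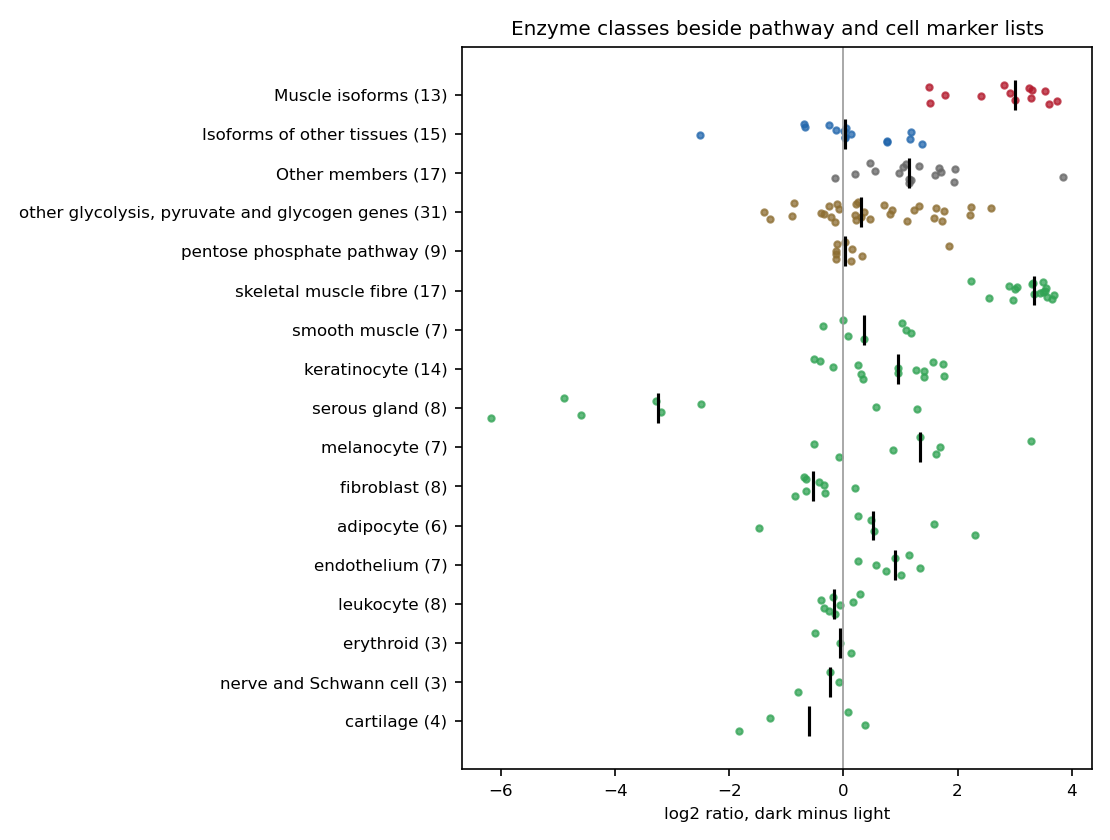
Log2 ratio (dark minus light) of each gene in the 3 enzyme classes (red, blue, grey), in 2 further pathway lists (brown) and in 12 lists of cell markers (green), with black bars at the medians, TYRP1, LEP and HAPLN1 at their lower bounds, and the number of genes with a ratio in brackets. The muscle isoforms (median 3.01) lie beside the skeletal muscle fibre markers (3.34). The isoforms of other tissues have a median of 0.037 but spread from -2.51 to 1.38.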

How the data were processed

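Muzzle RNA of 1 light and 1 dark cow was measured on 1 array each, on the same slide per the file headers. The authors deposited scanner output of Agilent Feature Extraction 10.7.3.1. Its processed signal, an intensity, had been corrected for background and for spatial trend. A table of log2 values that the authors made in GeneSpring was deposited too and served as an alternative. It differed by more than 0.01 from the levels here for 0 of the 148 probes of the listed genes.

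From the log2 processed signal, the array's own 75th percentile over noncontrol spots was subtracted. Outlier spots (13 an array) and control spots were dropped, and replicate spots of a probe were averaged. Probes were named through the RefSeq gene table of ARS-UCD2.0, whose build is not that of the array design, so no coordinates are given. The mean over probes well above background in both cows was a gene's ratio. A probe measured in only 1 cow gave a bound, set against the dimmest measured level of the opposite array (-5.78 light, -5.81 dark) or its own level, whichever was higher. Where its own level was higher, the value is a ratio to a dim spot and not a strict limit. With 1 array per group there was no test, and the precision is limited by that number.

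Full values were given for GAPDH, the families with a muscle isoform and enzyme genes past 2-fold. One marker gene is not reported here. The genes, lists and alternatives were chosen with earlier results of these data known. Alternatives were quantile, loess (span 0.3) and 50th percentile scaling, no shift, normexp (offset 50, median pixel signals), other filters on dim and outlier spots, the deposited table, the brightest or median probe, and thresholds of 1.5-fold and 3-fold. limma 3.58.1 (R 4.3.3) gave the quantile, loess and normexp values. Everything else ran in Python 3.11.15 with pandas 2.3.3 and numpy 2.4.6. The calculation of ratios and counts was tested on a copy of the light array with small added noise and changes planted in bright genes. That test did not cover changes in dim genes, bounds or probes that disagree, and it does not measure the precision of the ratios here.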

Additional observations from a re-analysis of the deposited data

How the results depend on the processing

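The number of listed genes at least 2-fold higher stayed between 25 and 28 under the scaling, background, filter and probe alternatives, and was 31 at a threshold of 1.5-fold and 17 at 3-fold. At least 2-fold lower was 1 gene under each of these except the brightest probe, which gave 2, and it was 3 at 1.5-fold. The median log2 ratio of the muscle isoforms lay between 2.90 and 3.04, and that of isoforms of other tissues between -0.066 and 0.047, on both sides of 0. In all 9 families the muscle isoform had a higher ratio than the mean of the others under every scaling, background, filter and probe alternative. GAPDH lay between 1.03, with the brightest probe, and 1.37. Of 28 single genes past 2-fold, GAPDH not counted, 4 were below it in at least 1 alternative, namely LDHB, PGK1, TPI1 and CKB, and CKB was reversed, at -0.38, with the brightest probe. Over all genes, those at least 2-fold higher or lower numbered 879 and 577 as reported and 635 and 375 under normexp. The cause of these shifts was not tested. The files hold no gene names beside accessions, so naming by accession alone is the analysis as reported, and naming by synonyms was not run. No paired analysis was possible because each group had 1 array. Dim probes such as those of PHKG1 and ENO2 are limited by the background.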

Other observations

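The pentose phosphate pathway, which branches from glycolysis to make NADPH and ribose, had 9 genes with a ratio. Their median log2 ratio was 0.033, and RPIA, ribose phosphate isomerase (levels of -1.39 and 0.47, 1 probe), was the only one at least 2-fold higher. This was 11.1% of the 9 genes, near the 9.86% of all genes that were at least 2-fold higher.

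Probes of the same gene differed with their brightness, a pattern noticed after the values were seen. Of 26 listed genes at least 2-fold higher with 2 or more measured probes, the dimmest probe had a higher ratio than the brightest in 22 (84.6%), and the median difference over the 26 was 0.13. Of 14 listed genes under 2-fold it was so in 11 (78.6%), with a median difference of 0.18. Of all 474 genes with 2 or more measured probes that were at least 2-fold higher, it was so in 65.6%, with a median difference of 0.13. Of 4625 genes that differed by less than 2-fold it was so in 69.3%, with a median of 0.14, and of 264 genes at least 2-fold lower in 59.1%, with a median of 0.11.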
